A study of Sus scrofa with 8 samples.

Results

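ISL1, ONECUT1, ONECUT2, LMX1A, LHX5, PAX6, DLX2, IRX3, IRX5 and DMRTA2 encode transcription factors that pattern the developing nervous system. They were chosen by symbol, with their read counts in the libraries described here already known, and each symbol stood on 1 identifier, which gives 10 of the 24358 genes of the count table. ISL1 and ONECUT1 were also among the genes that the study drew in its own heat map of these libraries. The values of the 10 genes in this contrast were therefore used in choosing them, and they are given as a description. A call among them only says on which side of the rule used for all genes a gene fell, and it is no test of the 10.

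Homeodomain proteins bind DNA through a helix-turn-helix fold, and the combination of homeodomain factors present in a progenitor or young neuron sets which type of neuron it becomes. LIM homeodomain proteins such as ISL1, LMX1A and LHX5 add a pair of LIM domains that bind cofactors of the LDB group, ONECUT proteins add a CUT domain, PAX6 adds a paired domain, and the IRX proteins belong to the TALE class. DMRTA2 is the exception, since it binds DNA through a zinc-containing DM domain and has no homeodomain.

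The study asked how IRF-1, a transcription factor of the interferon response, acts on porcine induced pluripotent stem cells (piPSCs). Its DOX-hLIF-2i piPSCs had been derived from porcine embryonic fibroblasts with doxycycline-inducible OSKM factors. The RNA-seq libraries of this contrast were 2 of IRF-1 overexpressing cells (replicates 1 and 3) and 2 of control cells (replicates 6 and 8). The overexpressing cells carried PB-CAG-IRF1-Flag, a piggyBac vector in which the ubiquitous CAG promoter drives IRF-1, and the controls carried the empty PB-CAG-Flag. According to the methods, both groups were selected with puromycin, a transposase plasmid is named for the overexpressing cells only, and the cells were kept with doxycycline, human and porcine LIF, CHIR99021 and PD0325901, so the reprogramming transgenes were induced in both. The labels name a different medium, LCDMV, and state that feeder cells were removed by a short plating step. The labels also give overexpression of IRF-1 as the genotype of all 4 RNA-seq libraries, and the division into overexpressing and control libraries was taken from the study's description.

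The libraries held 24923319 and 20858333 counts in overexpressing replicates 1 and 3, and 15925429 and 17097669 counts in control replicates 6 and 8. Mitochondrial genes held 8.62% and 7.57% of the counts in overexpressing cells and 6.29% and 6.68% in the controls. IRF1 had 8206 and 5485 counts in overexpressing cells against 55 and 56 in the controls, which is the order the division requires. Of 21 pluripotency markers, 13 had an identifier and 10 could be tested. Of these 10, 2 were called higher and 4 lower (8.61% and 10.6% of all genes were), and the median log2 fold change was -0.10. Levels are given in TPM (transcripts-per-million, counts divided by exon length and scaled to the library). The summed TPM of the 13 markers was 949 and 1060 in overexpressing cells and 2409 and 2123 in the controls. LIN28A was the most abundant of them, at 638 and 735 TPM against 2061 and 1680 TPM, and made up most of this difference. NANOG, a core pluripotency factor, had only 8, 11, 5 and 9 counts in overexpressing replicates 1 and 3 and control replicates 6 and 8, KLF17 and PRDM14 had none, and POU5F1 and SOX2 were not analysed here. ESRRB, a naive-state factor, had 31 and 37 counts in overexpressing cells and 502 and 402 in the controls, and the epithelial cadherin CDH1 had 631 and 1539 against 3753 and 4062. Without overexpressing replicate 1 or 3, the log2 fold change of CDH1 moved from -2.25 to -1.66 or -3.21. KLF5 was the other gene called lower, with 8 and 12 counts against 20 and 37, a call lost without overexpressing replicate 1 or 3 or control replicate 8. NR5A2 (431 and 344 against 53 and 47) and TBX3 (200 and 107 against 38 and 34) were called higher, TBX3 not without overexpressing replicate 1.

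Across all genes, 13250 passed the filter on low counts and were tested with edgeR's quasi-likelihood test, and a gene was called when its Benjamini-Hochberg adjusted p was under 0.05 and its log2 fold change was 1 or more in either direction. On this rule 1141 genes were called higher in the overexpressing cells (8.61% of those tested) and 1410 lower (10.6%). Without overexpressing replicate 1 the counts were 756 and 874. Nothing in the labels says that libraries of a group came from separate cultures, so p-values measure only the spread between these libraries, which may be technical. An exact permutation test of 2 against 2 libraries cannot give a two-sided p below 0.333 and was not used.

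Of the 10 neural factors, 3 (ISL1, ONECUT1 and ONECUT2) were called higher, against 8.61% of all genes, and 1 (LMX1A) was called lower, against 10.6% of all genes. Because the genes were chosen with this contrast in view, nothing is read from these shares. All 10 passed the filter, but LMX1A, PAX6 and DMRTA2 passed only through the control libraries, where they were higher. The overexpressing libraries were both above the controls for 3 genes and both below them for 5 genes, and the groups overlapped for DLX2 and IRX3. Of all tested genes, 34.8% had both overexpressing libraries above both controls and 33.8% below. The median log2 fold change of the 10 genes was -0.45, and that of all tested genes was 0.00. In whole cultures such as these, fewer cells of a type and less RNA per cell cannot be told apart.

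ISL1 (ENSSSCG00000016883) is a LIM homeodomain factor of motor and sensory neurons, and it also acts in heart progenitors and pancreatic islets. Its position in the pig genome (Sus scrofa 11.1) is chromosome 16, 30963000 to 30973907, plus strand. Its reads numbered 677 and 386 in overexpressing replicates 1 and 3, and 63 and 80 in control replicates 6 and 8. Scaled by library size and TMM factor, these were 27.2 and 18.5 counts-per-million (CPM) against 4.03 and 4.57 CPM. Both overexpressing libraries were high, both controls were low, and the lower of the overexpressing libraries was still well above the higher control. The means were 22.9 ± 6.14 and 4.30 ± 0.383 CPM (SD, n = 2), and the log2 fold change was 2.41 (SE 0.27), a 5.32-fold difference. It lay between 2.12 and 2.66 when any single library was left out.

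Within the LIM homeodomain family the part taken by ISL1 also differed between the groups. By TPM, ISL1 made up 40.8% and 42.7% of the summed level of the 11 measured family genes in overexpressing replicates 1 and 3, and 19.1% and 21.1% in control replicates 6 and 8. The replicates of a group were close to each other on this measure. ISL2, the closest relative of ISL1 and likewise a motor neuron factor, had 44 and 42 counts against 30 and 22 and was not called (log2 fold change 0.26, SE 0.43). The TPM of ISL1 was 6.84 and 4.09 times that of ISL2 in overexpressing cells, and 0.934 and 1.62 times in the controls.

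ONECUT1 and ONECUT2 are paralogous CUT-homeodomain factors that act in liver and pancreas and in motor neurons and horizontal cells of the retina. ONECUT1 (ENSSSCG00000004616, chromosome 1, 118913444 to 118952453, plus strand) had 427 and 190 counts in overexpressing replicates 1 and 3, and 41 and 58 in control replicates 6 and 8. In CPM these were 17.2 and 9.13 against 2.62 and 3.31. The groups did not overlap, but replicate 1 was 1.88 times as high as replicate 3. On the log2 scale the difference was 2.14 (SE 0.38), or 4.42-fold, and it ranged from 1.63 to 2.53 with 1 library left out.

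ONECUT2 (ENSSSCG00000004540) lies on the same chromosome and strand, from 106751325 to 106799956. It had 1450 and 589 counts in overexpressing replicates 1 and 3, and 67 and 170 in control replicates 6 and 8, or 58.3, 28.3, 4.29 and 9.71 CPM. Both overexpressing libraries were above both controls, yet the libraries differed 2.06-fold within the overexpressing group and 2.27-fold within the control group, more than for either ISL1 or ONECUT1. Its log2 fold change of 2.62 (SE 0.45), a 6.16-fold difference, was the largest increase among the 10 genes. Individual libraries moved it by more than 1.5 times, to 2.02 without overexpressing replicate 1 and to 3.35 without control replicate 8. Per length, the level of ONECUT2 was 3.20 and 2.92 times that of ONECUT1 in overexpressing cells and 1.54 and 2.76 times in the controls, so ONECUT2 was the higher of the pair in every library. The third member, ONECUT3, had 4 counts in overexpressing replicate 1 and none in the other libraries.

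LMX1A (ENSSSCG00000006329) is a LIM homeodomain factor of the roof plate and of midbrain dopaminergic progenitors, and it moved the opposite way from ISL1. It lies on the plus strand of chromosome 4, from 85405692 to 85571456. Its counts were 13 and 9 in overexpressing replicates 1 and 3 and 80 and 122 in control replicates 6 and 8, or 0.523 and 0.432 CPM against 5.12 and 6.97 CPM. Both overexpressing libraries were low but above the floor of 3 counts, and both controls were high. The log2 fold change was -3.64 (SE 0.42), a 12.5-fold lower level, and the largest change in size among the 10 genes. It stayed between -3.85 and -3.39 with any single library left out.

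The opposite directions of ISL1 and LMX1A could be read within each library. The ratio of ISL1 to LMX1A in TPM was 51.4 and 42.4 in overexpressing replicates 1 and 3, and 0.778 and 0.648 in control replicates 6 and 8. LMX1A therefore stood above ISL1 in both controls and far below it in both overexpressing libraries. Its share of the summed family TPM was 24.6% and 32.5% in the controls and 0.793% and 1.01% in overexpressing cells. LMX1B, which acts beside LMX1A in the midbrain and roof plate, was too low for the test, with 2 counts in each overexpressing library and 8 and 13 in the controls. Its pooled ratio of overexpressing to control counts per total was 0.137, with an exact 95% counting interval from 0.0343 to 0.407.

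LHX5, PAX6 and DMRTA2 all act in progenitors of the forebrain. LHX5 (ENSSSCG00000009869, chromosome 14, 38446730 to 38457177, plus strand), a LIM homeodomain factor of the forebrain and spinal interneurons, had 48 and 36 counts in overexpressing replicates 1 and 3 and 41 and 54 in control replicates 6 and 8. These correspond to 1.93 and 1.73 CPM against 2.62 and 3.09 CPM. Both overexpressing libraries were thus slightly below both controls, at a log2 fold change of -0.64 (SE 0.38) that was not called.

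PAX6 (ENSSSCG00000013320, chromosome 2, 28973472 to 29001265, plus strand), which is needed for the eye, cortical progenitors and pancreatic islets, was the lowest of the 10 genes in TPM. It had 12 and 3 counts in overexpressing cells and 11 and 17 in the controls, or 0.483, 0.144, 0.704 and 0.971 CPM. The control libraries were above both overexpressing libraries, of which replicate 3 was at the floor. The log2 fold change was -1.37 (SE 0.66) and ranged from -2.47 without overexpressing replicate 1 to -0.79 without overexpressing replicate 3, so its size rested on which of these libraries was used. At 17 counts or fewer per library, a change of this size was not called.

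DMRTA2 (ENSSSCG00000030552, chromosome 6, 161616646 to 161621904, plus strand) maintains cortical progenitors in the embryo. It had 11 and 5 counts in overexpressing cells and 17 and 11 in the controls, or 0.442, 0.240, 1.09 and 0.629 CPM. As for PAX6, both overexpressing libraries were below both controls at counts close to the floor. Its log2 fold change of -1.28 (SE 0.61) was not called.

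DLX2 (ENSSSCG00000015954), a factor of GABAergic interneurons of the ventral forebrain, lies on the minus strand of chromosome 15, from 78201917 to 78204157. It had 37 and 41 counts in overexpressing cells and 37 and 31 in the controls, or 1.49, 1.97, 2.37 and 1.77 CPM. The groups overlapped, and the log2 fold change was -0.26 (SE 0.42). DLX1, which overlaps DLX2 in function and is its neighbour on the chromosome, behaved differently, with 288 and 171 counts against 24 and 29. It was called higher, at a log2 fold change of 2.63 (SE 0.34) and an adjusted p of 0.00156 in edgeR's quasi-likelihood test. In TPM, DLX1 was 2.98 and 1.60 times as high as DLX2 in overexpressing cells and 0.248 and 0.358 times as high in the controls, so the order of the pair was turned in both libraries of each group. Whether the changes of the pair differ was not tested.

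IRX3 and IRX5 are neighbouring genes of one Iroquois cluster and pattern the neural tube, heart and limb. IRX3 (ENSSSCG00000002831, chromosome 6, 31046345 to 31051867, plus strand) had 362 and 270 counts in overexpressing replicates 1 and 3 and 220 and 161 in control replicates 6 and 8, or 14.6, 13.0, 14.1 and 9.20 CPM. The overexpressing libraries and control replicate 6 were alike, and only control replicate 8 was lower. Its log2 fold change was 0.25 (SE 0.27), and it was -0.02 without control replicate 8.

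IRX5 (ENSSSCG00000032145, chromosome 6, 30511894 to 30514609, minus strand) had 224 and 264 counts in overexpressing cells and 268 and 376 in the controls. In CPM these were 9.01 and 12.7 against 17.1 and 21.5, so both overexpressing libraries were below both controls. The log2 fold change was -0.83 (SE 0.25), a 1.78-fold lower level, which is under the minimum for a call. Without overexpressing replicate 3 it was -1.09 and IRX5 was called lower. The TPM of IRX5 was 2.07 and 3.28 times that of IRX3 in overexpressing cells and 4.08 and 7.83 times in the controls. IRX5 was therefore the higher of the pair in every library, by less in the overexpressing cells.

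**Figure D1:**
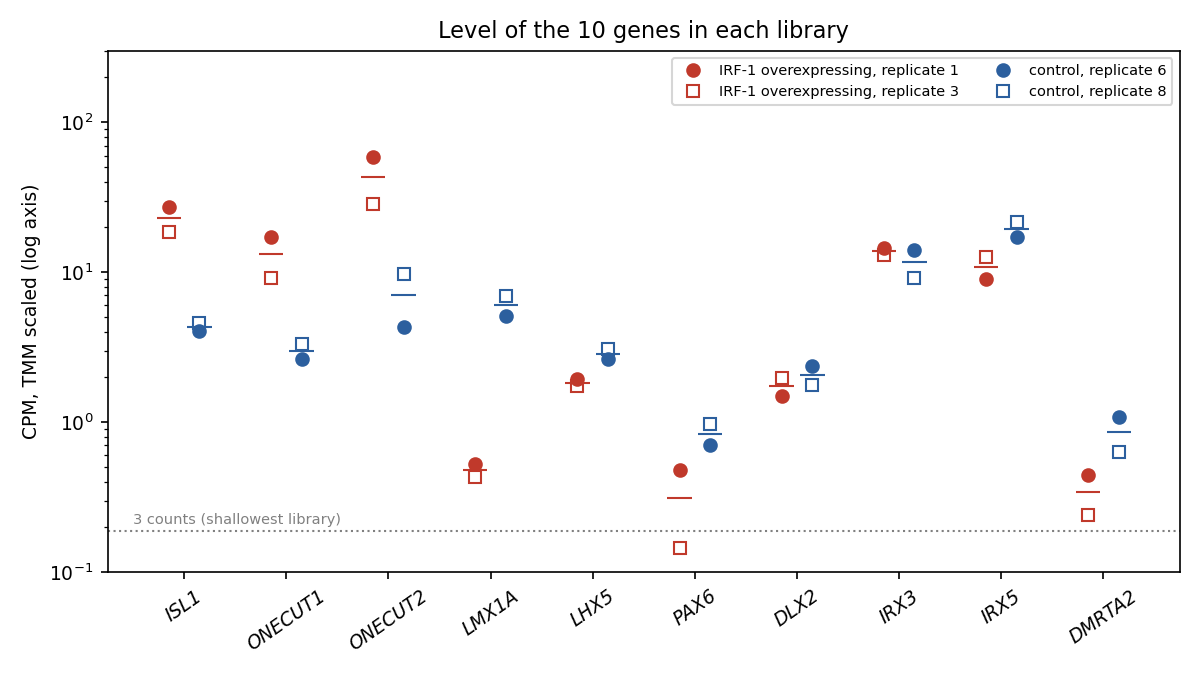
Level of each of the 10 genes in the 4 libraries, in CPM scaled by TMM on a log axis; filled circles and open squares are single libraries, short lines are group means, and the dotted line is what 3 counts are worth in the shallowest library. ISL1, ONECUT1 and ONECUT2 are higher in both IRF-1 overexpressing libraries, LMX1A is lower in both, and DLX2 and IRX3 overlap between the groups.

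Levels of different genes were compared in TPM, which allows for exon length. In control cells IRX5 was the most abundant of the 10, at 36.5 ± 7.77 TPM (SD, n = 2), and its lower value was above both values of every other gene. IRX3 followed at 6.48 ± 1.58 TPM, then ONECUT2 at 4.54 ± 2.69, DLX2 at 4.38 ± 0.655 and LMX1A at 3.82 ± 1.03 TPM. The ranges of IRX3 and ONECUT2, of ONECUT2 and DLX2, and of DLX2 and LMX1A overlapped, so their order was not resolved. ISL1 at 2.68 ± 0.384, LHX5 at 2.24 ± 0.378 and ONECUT1 at 2.02 ± 0.441 TPM came next, where LHX5 overlapped with both others and ISL1 was slightly above ONECUT1 in both libraries. DMRTA2 at 0.913 ± 0.298 and PAX6 at 0.523 ± 0.146 TPM were the lowest.

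In the overexpressing cells ONECUT2 came first, at 25.5 ± 12.3 TPM, but its range overlapped that of IRX5 at 18.9 ± 4.70 TPM. IRX5 was above ISL1 in both libraries by a narrow margin, since its lower value was 15.6 TPM and the higher value of ISL1 was 15.5 TPM. ISL1 at 13.1 ± 3.41 TPM stood above ONECUT1 at 8.23 ± 3.49 TPM, also by a narrow margin. The lower value of ISL1 was 10.72 TPM and the higher value of ONECUT1 was 10.70 TPM. ONECUT1 overlapped with IRX3 at 7.15 ± 0.518 TPM. DLX2 at 3.41 ± 0.702 and LHX5 at 1.32 ± 0.0907 TPM followed, each apart from its neighbours. The lowest were DMRTA2 at 0.339 ± 0.139, LMX1A at 0.278 ± 0.0347 and PAX6 at 0.179 ± 0.136 TPM, whose ranges overlapped. By mean TPM, ISL1 held the sixth place in control and the third in overexpressing cells, and LMX1A the fifth and the ninth.

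Libraries of a group also differed from each other. In overexpressing replicate 1, 8 of the 10 genes were higher in CPM than in replicate 3, the exceptions being DLX2 and IRX5. In control replicate 8, 7 of the 10 were higher than in replicate 6, the exceptions being DLX2, IRX3 and DMRTA2. Whether these counts differ from those of all genes was not tested. The summed TPM of 19 measured pan-neuronal genes was 1172 in overexpressing replicate 1 and 718 in replicate 3, against 447 and 421 in control replicates 6 and 8. Most of the difference between the overexpressing libraries came from TUBB3 (347 and 117 TPM) and STMN2 (344 and 165 TPM). The part of neuronal cells or RNA in the values of ISL1, ONECUT1 and ONECUT2 was not tested.

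The mean profile of the 10 genes over the 4 libraries was nearly flat, since it averages genes that moved in opposite directions. Centred on its mean, it was 0.22 and -0.09 on the log2 scale in overexpressing replicates 1 and 3 and -0.13 and 0.00 in control replicates 6 and 8. The genes with a symbol closest to it, by Euclidean distance over the 4 libraries, were CDKN2B, TTC3, RIC1, THAP6 and SNORA69, at distances from 0.053 to 0.056. These 5 genes were not called, and their log2 fold changes lay between 0.14 and 0.18.

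Some other genes of the same families were called higher. Beside the 10 genes, 36 family symbols were listed, of which 33 had an identifier and 15 passed the filter. Of these 15, 9 were called higher (8.61% of all genes were) and 0 lower with edgeR, and the median log2 fold change was 2.29. DESeq2 called 8 of them higher and 0 lower. At an unadjusted p under 0.05, 9 were higher and 1 lower in edgeR. Of the 9 genes called, LHX2, LHX6, PAX7 and DMRT1 passed the filter only through the overexpressing libraries, where they were higher, and of the other 11 tested genes 5 were called higher. Of the 33, 9 had no more than 3 counts in every library, among them LHX8, PAX1, PAX4 and IRX4 with no count at all, and LHX9, PAX2, IRX1, IRX6 and DMRTC2. LHX3, PAX8 and DMRTB1 were not analysed here.

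In the LIM homeodomain family, LHX6, a factor of cortical interneurons, had 65 and 40 counts in overexpressing cells and 1 in each control, a pooled ratio of 37.9 with an exact 95% counting interval from 10.2 to 317. LHX1, which acts with LHX5 in spinal interneurons, had 315 and 101 counts against 27 and 17 (log2 fold change 2.71, SE 0.55), and its call was lost without overexpressing replicate 1, where the value was 1.86. Per length, LHX5 was 1.42 and 2.97 times as high as LHX1 in the controls and 0.143 and 0.333 times as high in overexpressing cells. LHX2, a factor of cortex and eye, had 60 and 25 counts against 1 and 8 (log2 fold change 2.73, SE 0.76). Its call was lost without overexpressing replicate 1 (2.15) or control replicate 6 (1.98), and the value was 4.71 without control replicate 8. LHX4 had 8 counts or fewer in each library and was not tested.

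Among the CUT genes outside the ONECUT pair, CUX2 and SATB1, which act in cortical neurons, were called higher. Their counts were 142 and 160 against 25 and 20 for CUX2 and 1639 and 1320 against 412 and 548 for SATB1. SATB1 was the most abundant CUT gene analysed, at 74.7 and 72.8 TPM in overexpressing cells and 31.2 and 40.1 TPM in the controls. The log2 fold changes were 2.29 (SE 0.38) and 1.17 (SE 0.16). CUX1, a widely expressed relative, was not called (-0.63, SE 0.16). ONECUT1 and ONECUT2 together with CUX2 and SATB1 thus had higher values in both overexpressing libraries.

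PAX6 differed in direction from PAX7 and PAX9. PAX7, a factor of dorsal neural tube and neural crest, had 120 and 185 counts in overexpressing cells and 0 and 2 in the controls, a pooled ratio of 110 with a 95% counting interval from 30.2 to 912. PAX9, a factor of pharyngeal pouches and skeleton, had 604 and 189 counts against 9 and 10 (log2 fold change 4.85, SE 0.58, and 3.98 without overexpressing replicate 1). For PAX7, whose control counts were so few, the fitted log2 value of 6.69 was 5.83 without control replicate 6. Without control replicate 8 the remaining control had 0 counts of PAX7, so its fitted 10.13 is no measured fold. PAX6 held 41.5% and 40.6% of the summed PAX TPM in the controls and 1.64% and 0.763% in overexpressing cells, where PAX9 and PAX7 made up most of the sum. PAX5 was not called (1.01, SE 0.75) and had no settled direction, at -0.39 without overexpressing replicate 1 and 1.69 without overexpressing replicate 3, and PAX3 had 10 and 11 counts against 1 and 3 and was not tested.

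Of the remaining DLX genes, DLX5, which acts in ventral forebrain and branchial arches, had 60 and 52 counts against 9 and 36 and was not called (0.88, SE 0.57), but its value was 2.09 and called without control replicate 8 and 0.25 without control replicate 6. DLX3, DLX4 and DLX6 had 13 counts or fewer in each library and were not tested. In the IRX family IRX2 had 30 and 23 counts against 12 and 8 (0.92, SE 0.51), and was not called. Of the DM-domain genes, DMRT1, a factor of the gonad, had 35 and 21 counts against 4 and 3 (2.48, SE 0.60). The call of DMRT1 was lost without any single one of the 4 libraries. DMRTA1, the closest relative of DMRTA2, had 9 and 16 counts against 15 and 22 (-0.99, SE 0.56; -1.60 without overexpressing replicate 3) and was not called, and DMRT2 and DMRT3 had 13 counts or fewer in each library.

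**Figure D2:**
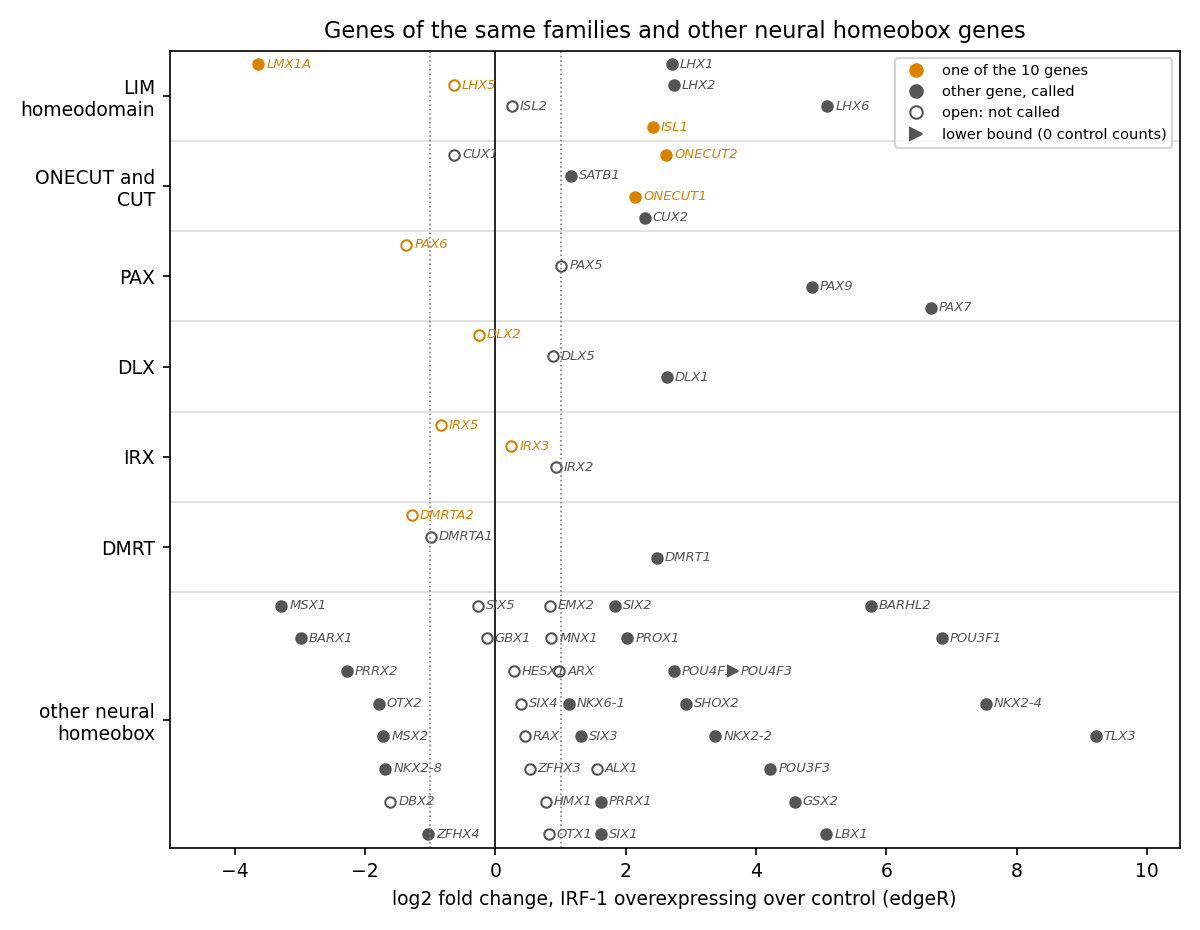
Fitted log2 fold change (IRF-1 overexpressing over control, 2 libraries each) of each tested gene of the 6 families and of other neural homeobox genes, 1 row of the plot per family; filled symbols were called, open ones were not, the dotted lines mark a log2 fold change of 1 in size, and the triangle marks a lower bound for a gene with 0 control counts. ISL1, ONECUT1 and ONECUT2 lie among called relatives on the right, and LHX5, PAX6, DLX2, IRX5 and DMRTA2 lie left of 0 without a call. LMX1A is the only called gene left of 0 in the 6 families, and 7 of the other neural homeobox genes are called left of 0.

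Proteins of the LDB and SSBP groups join LIM homeodomain factors into complexes, and LMO proteins compete with them. Of 10 such cofactor genes, 8 had an identifier and 6 were tested. With edgeR, 1 was called higher and 0 lower (8.61% and 10.6% of all genes were), at a median log2 fold change of -0.14. At an unadjusted p under 0.05, 1 was higher and 2 were lower, and DESeq2 called 1 higher and 0 lower. The gene called was LDB2, with 603 and 456 counts against 137 and 123 (1.55, SE 0.22). LDB1, the main partner, had 3858 and 3414 counts against 3460 and 2434 and was not called (-0.17, SE 0.22). The most abundant was SSBP4, at 156 and 178 TPM in overexpressing cells and 214 and 173 TPM in the controls, and LDB1, SSBP3 and SSBP4 were above ISL1 and LMX1A in every library, whereas LMO1 had no count.

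Other homeobox genes of the nervous system moved in both directions. Of 77 such genes, 71 had an identifier and 37 were tested. Of the 37, 17 were called higher (8.61% of all genes were) and 7 lower (10.6% of all genes were). Their median log2 fold change was 0.98. Of those called higher, NKX2-2, NKX2-4, GSX2, LBX1, TLX3, POU3F1, POU4F3 and BARHL2 passed the filter only through the overexpressing libraries, where they were higher. TLX3, which specifies excitatory sensory neurons, had 1077 and 750 counts in overexpressing cells and 2 and 0 in the controls, a pooled ratio of 659 with a 95% counting interval from 182 to 5445. NKX2-4, a ventral forebrain factor, had 954 and 408 against 3 and 2 (ratio 197, from 84.0 to 606), and POU3F1 had 245 and 262 against 2 and 1 (ratio 122, from 41.5 to 593). POU4F3, a sensory factor of the same POU-homeodomain class, had 39 and 13 counts against none, which makes it at least 12.5-fold higher against a floor of 3 counts over the control group. Without overexpressing replicate 1 it did not pass the filter and was not tested. Among the called genes, the strongest decreases were in MSX1 (173 and 357 against 1836 and 2038), BARX1 (40 and 113 against 486 and 421), PRRX2 (13 and 23 against 88 and 40) and OTX2 (450 and 813 against 1498 and 1786).

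Some of these values rested on single libraries. The fitted log2 fold changes of MSX1, BARX1, PRRX2 and OTX2 were -3.29, -2.99, -2.29 and -1.79, and without overexpressing replicate 3 they were -4.06, -4.09, -2.89 and -2.44. BARX1 was at -2.33 without overexpressing replicate 1, and PRRX2 lost its call without overexpressing replicate 1 (-1.81) or control replicate 6 (-1.50). The fitted value of POU3F1 was 7.47 without control replicate 6, and that of TLX3 was 8.22 without control replicate 8. Without control replicate 6 the remaining control had 0 counts of TLX3, so its fitted 12.71 is no measured fold. GBX1, the most abundant gene of the list by the mean of the 4 libraries, was not called, at 115 and 118 TPM against 141 and 134 TPM. In overexpressing replicate 1 TLX3 was above it, at 119 TPM. Together with the family genes, 52 homeobox and DMRT genes other than the chosen 10 were tested. They include the genes named above that passed the filter only through the overexpressing libraries. Of the 52, 26 were called higher and 7 lower, against 8.61% and 10.6% of all genes. The counts were 21 and 4 without overexpressing replicate 1. The relatives too were listed with earlier results known, and their shares were not tested against those of the chosen 10.

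The genes beside the 10 on the chromosomes were more often called higher than lower. The 2 nearest genes on each side came to 36 genes, not counting IRX3 and IRX5 beside each other, at gaps from 3722 to 1168127 bases. Of these, 22 were tested, with 6 called higher (27.3%, against 8.61% of all genes) and 1 lower (4.55%, against 10.6%), and the difference from all genes was not tested. RXRG, a retinoid X receptor gene 44161 bases from LMX1A, had 5190 and 2081 counts in overexpressing cells and 7 and 8 in the controls. It moved opposite to LMX1A, at a log2 fold change of 8.39 (SE 0.49; 7.78 without overexpressing replicate 1) and an adjusted p of 0.000145 by edgeR's quasi-likelihood test. Its overexpressing libraries differed 2.09-fold. ST8SIA3, a sialyltransferase gene of the nervous system 53345 bases from ONECUT2, had 537 and 302 counts against 43 and 58 and was called in the same direction as ONECUT2 (2.57, SE 0.30). WDR7 and FECH, the other named neighbours of ONECUT2, were not called (-0.01, SE 0.23, and 0.13, SE 0.15).

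ATOSA, 40967 bases from ONECUT1, was called higher (1.05, SE 0.24), but not without overexpressing replicate 1 (0.72) or control replicate 8 (0.92), and MYO5A on the same side was not called. DLX1 lay 10620 bases from DLX2, and ITGA6, an integrin gene on the other side of DLX2, was called lower (-1.31, SE 0.17) while METAP1D and PDK1 were not called. METAP1D and DLX1 share 354 exon bases on one strand, so some of their reads may not be separable. PAX9 shares 913 exon bases with SLC25A21 on the opposite strand, and the strand setting of the counts is not known here. SLC25A21 had 25 and 28 counts in overexpressing cells and 23 and 50 in the controls. None of the 10 chosen genes shared exon bases with another gene of the table. Near LHX5, RBM19 was called higher (1.13, SE 0.21), though not without control replicate 6 (0.85), and SDS was not called. The named neighbours PARP8 and PELO of ISL1, ELP4 and IMMP1L of PAX6, FTO and RPGRIP1L of IRX3, and FAF1 and ELAVL4 of DMRTA2 were not called.

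Markers of the cell types in which these factors act gave mixed counts. Beside every count of calls below, the shares of all genes were 8.61% called higher and 10.6% lower. In these lists too, some genes passed the filter only through the group where they were higher. Of 14 motor and autonomic neuron genes, 12 had an identifier and 8 were tested, 1 called higher and 2 lower (median log2 fold change 0.09). CHAT, the enzyme that makes acetylcholine, had 1 count in all libraries together. SLC18A3, the transporter that loads acetylcholine into vesicles, had 24 and 19 counts in overexpressing cells and 15 and 18 in the controls. The motor neuron factor MNX1 was the most abundant gene of the list, at 30.8 and 33.7 TPM against 18.2 and 20.3 TPM. Its log2 fold change was 0.86 (SE 0.22), which is under the minimum for a call. The genes called were SLC5A7 (26 and 11 counts against 2 and 1), DBH (38 and 62 against 151 and 177) and PRPH (23 and 28 against 72 and 87, a call lost without overexpressing replicate 1). The call of SLC5A7 was lost without control replicate 6 or control replicate 8, and without overexpressing replicate 1 SLC5A7 did not pass the filter. The summed TPM of the list was 46.3 and 48.0 in overexpressing cells and 42.7 and 48.2 in the controls.

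Of 13 midbrain dopaminergic genes, 6 were tested, 2 called higher and 2 lower (median log2 fold change 0.00), and TH and FOXA2 had no count in any library. WNT1, which acts with LMX1A in the midbrain, had 19 and 17 counts in the controls and none in overexpressing cells, at least 16.6-fold lower against a floor of 3 counts over the overexpressing group. MSX1, also a partner of LMX1A in these progenitors, had the highest mean TPM of the list over the 4 libraries. It was likewise lower, at 4.41 and 11.0 TPM against 77.8 and 83.4 TPM, and SLC6A3 was above it in overexpressing replicate 1 (6.06 TPM). DDC, the decarboxylase of dopamine synthesis, had 100 and 24 counts against none, at least 29.8-fold higher against a floor of 3 counts over the control group. Most of these counts came from overexpressing replicate 1. Because both controls had 0 counts of DDC, its fitted log2 value of 8.69 is no measured fold, and only the bound is read. Other settings that kept all 4 libraries brought this fitted value down to 6.22. Dropping replicate 1 or replicate 3 of the overexpressing group shifted it to 7.39 or 9.29. The dopamine transporter gene SLC6A3 had 172 and 40 counts against 9 and 10 (2.94, SE 0.68), a call lost without overexpressing replicate 1 (1.75), and the value was 3.58 without overexpressing replicate 3. The summed TPM of the list was 22.1 and 20.3 in overexpressing cells and 92.6 and 94.7 in the controls, and it was carried by MSX1 in the controls.

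Of 18 pan-neuronal genes tested, 10 were called higher and 1 lower (6 and 1 with glmTreat), against 8.61% and 10.6% of all genes. Their median log2 fold change was 1.40. Neither this list nor those below were tested against these shares. The neuronal tubulin TUBB3 had 8726 and 2443 counts against 97 and 185, INA had 524 and 171 against 6 and 22, SYP had 697 and 503 against 34 and 31, and ELAVL2 had 4023 and 2241 against 158 and 235. The log2 fold change of TUBB3 was 4.80 (SE 0.54) and ranged from 3.81 without overexpressing replicate 1 to 5.39 without overexpressing replicate 3, and that of INA was 4.13 (SE 0.63), from 3.31 without overexpressing replicate 1 to 5.24 without control replicate 8. The adhesion molecule gene L1CAM was called lower, with 108 and 142 counts against 1590 and 990. STMN2 had the highest mean TPM of the list over the 4 libraries (344 and 165 TPM against 80.0 and 90.6 TPM), though NCAM1 was above it in both controls, and its log2 fold change of 1.69 was 1.07 without overexpressing replicate 1.

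Neural progenitor genes were called in both directions, with 3 higher and 5 lower of 11 tested (median log2 fold change -0.66), and 3 higher and 2 lower with glmTreat. NEUROG2, a proneural factor, had 85 and 49 counts against none, at least 32.2-fold higher against the same floor, while HES5, a Notch target of progenitors, had 1 and 0 counts against 11 and 14. The call of HES5 was lost without overexpressing replicate 3, and without control replicate 8 HES5 did not pass the filter. Its fitted log2 value of -4.75 was -4.02 without overexpressing replicate 3. Without overexpressing replicate 1 the remaining overexpressing library had 0 counts of HES5, so its fitted -6.77 is no measured fold. PROM1 (446 and 330 against 71 and 89) and GPM6A (1739 and 1072 against 283 and 383) were the other genes called higher. NES, the intermediate filament of progenitors, had 508 and 423 counts against 1697 and 1082, and FABP7 (649 and 805 against 1246 and 1404) was also called lower. MSI1 (1713 and 2016 against 3462 and 2907) and CDH2 (7378 and 7388 against 10392 and 12160) were called lower too, but not without overexpressing replicate 1. VIM was the most abundant gene of the list, at 382 and 320 TPM against 426 and 447 TPM, and was not called. SOX1 and SOX2 were not analysed here.

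Among eye field and retina genes, in which PAX6 acts, 4 of 6 tested were called higher and 1 lower, against 8.61% and 10.6% of all genes. Their median log2 fold change was 2.02. With glmTreat 2 were called higher, and fewer were called higher without some single libraries. Of the 4, LHX2 and TBX2 passed the filter only through the overexpressing libraries, where they were higher. CRX had no counts. SIX3 had the highest mean TPM over the 4 libraries (74.8 and 65.1 TPM against 30.0 and 30.6 TPM) and was called higher, though OTX2 was above it in both controls. The eye factor MITF had 219 and 115 counts against 15 and 12, and TBX2 had 30 and 17 against 1 and 2, a call lost without overexpressing replicate 1 or control replicate 6. Of 7 tested neural crest genes, 3 were called higher and 1 lower (median log2 fold change 0.72), with TFAP2A at 769 and 890 counts against 45 and 47 and TFAP2B at 81 and 95 against 14 and 16, a call lost without overexpressing replicate 3, whereas SOX10 and NGFR, which mark migrating crest, had 7 counts or fewer in each library. PAX7, which passed the filter only through the overexpressing libraries, and MSX1, both given above, stood in this list too. MSX1 had the highest mean TPM over the 4 libraries in it. ETS1, ZIC1 and TFAP2A were above MSX1 in both overexpressing libraries.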

How the data were processed

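According to the methods and the submitters' processing notes, reads were trimmed with trim_galore, mapped to Sus scrofa 11.1 with HISAT2 2.0.4 and counted with featureCounts 1.6.4. The authors deposited whole-number counts per gene and library, without normalization, beside each gene's exon length in bases. The annotation release, strand setting and treatment of multi-mapped reads are not given in the sources used here. The ChIP libraries were not used here.

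Symbols were matched to 14692 of 24358 identifiers. Counts were tested with edgeR 4.0.16 in R 4.3.3 (TMM factors, filterByExpr by group, quasi-likelihood test, Benjamini-Hochberg adjustment over 13250 genes). The SE is the size of the log2 fold change divided by the square root of F. A count was worth between 0.0401 and 0.0628 CPM, and 3 counts were taken as the floor. Pooled ratios of genes with up to 6 counts in a group carry exact 95% conditional binomial intervals. Intervals and floors cover counting error only. A call was also counted as lost where a gene no longer passed the filter with a library left out. TPM was computed from counts and exon length. The fit was tested on simulated counts. Alternatives were other scalings and filters, DESeq2 1.42.0, limma-voom (limma 3.58.1), glmTreat, no fold-change minimum, the counts without 37 mitochondrial and the 10 highest genes, and each library left out, where the lone library is assumed to vary like the others. Python 3.11.15 (scipy 1.17.1, pandas 2.3.3, numpy 2.4.6, matplotlib 3.10.9) was used for summaries and plots.

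Named genes were the 10 genes, IRF1, and every measured gene of the LIM homeodomain, ONECUT and CUT, PAX, DLX, IRX and DMRT families. For each other list they were up to 4 called genes in each direction with the largest fitted log2 fold change. The gene of highest mean TPM over the 4 libraries was added for each of these lists. The tested neighbours with a symbol were also named. So were the 5 genes nearest in profile, by log2(CPM + 0.5), among those averaging 1 CPM or more. The 10 genes and the 21 lists were chosen with earlier results of these data known. Other genes were named after their values were seen. A few listed genes are not reported here and were left out of all list counts.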

Additional observations from a re-analysis of the deposited data

How the results depend on the processing

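All 14 alternatives called 3 of the 10 genes higher and LMX1A lower, which is no sign of stability, since the genes were chosen with these values known. The median log2 fold change of the 10 genes ran from -0.51 to -0.32. Of the 120 values of the 10 genes under alternatives, 4 moved by more than the spread between replicates, those of PAX6 and DMRTA2 with a library left out, and 1 changed sign, that of IRX3, which was not called (0.25, and -0.02 without control replicate 8). With no minimum fold change, 1842 genes were called higher and 2054 lower, against 1141 and 1410, and 2 of the 10 genes were called lower, IRX5 with LMX1A. With glmTreat, a stricter rule, 611 and 603 were called, and 2 of the other homeobox and DMRT genes were called lower, against 7. With 1 library left out, which leaves fewer samples, the counts were 756 to 1156 higher and 874 to 1548 lower, 1 to 2 of the 10 genes lower (IRX5 joining without overexpressing replicate 3, the cause was not tested), and of other homeobox and DMRT genes 21 to 30 higher and 4 to 6 lower. In 141 other tested genes (IRF1, the homeobox and DMRT genes, the called and the most abundant genes of the other lists, LDB1, SSBP3, SLC18A3, NCAM1, and the neighbours and genes near in profile that have a symbol), 1683 values under alternatives gave 17 changes of sign, in 12 genes that were not called, 66 values that missed the adjusted p where the reported value met it (58 with a library left out) and 9 the other way. With a library left out, ISL2 ran from -0.012 to 0.59, PAX5 from -0.39 to 1.69, HESX1 from -0.12 to 0.85, LDB1 from -0.46 to 0.20, SSBP4 from -0.29 to 0.11, WDR7 from -0.31 to 0.37, ELP4 from -0.024 to 0.21, FTO from -0.30 to 0.026, RPGRIP1L from -0.11 to 0.41, CDKN2B from -0.0072 to 0.28, THAP6 from -0.033 to 0.35 and SNORA69 from -0.057 to 0.39. WDR7 was at 0.00368 without a filter and 0.016 with limma-voom (the cause was not tested). Of the counts for the other lists, 36 moved to fewer calls and 13 to more by over 1.5 times. Other scalings moved the median of all genes by at most 0.007. The alternatives for lists, other genes and the number of the 10 genes called lower were chosen after seeing the data. No paired analysis was possible because the libraries' numbers are not shared between the groups. PAX6 and DMRTA2 came down to 3 and 5 counts in the overexpressing libraries, and whether depth limits their calls was not tested.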

Other observations

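Some of these factors act outside the nervous system, and genes of those tissues were counted too. Beside each of these counts, the shares of all genes were 8.61% called higher and 10.6% lower. ISL1 and PAX6 act in pancreatic islets. Of 19 pancreatic endocrine genes, 16 had an identifier and 7 were tested with edgeR, of which 4 were called higher and 0 lower (at an unadjusted p under 0.05 also 4 and 0, 4 and 0 with DESeq2, and 2 and 0 with glmTreat), with a median log2 fold change of 1.13. NKX2-2 had 96 and 79 counts in overexpressing cells and 7 and 5 in the controls, PCSK1 had 37 and 11 against 2 and 2 (a call lost without overexpressing replicate 1 or either control), CHGA had 6056 and 4714 against 817 and 532, and NKX6-1 had 3115 and 2364 against 924 and 881. CHGA had the highest mean TPM over the 4 libraries, at 203 and 191 TPM against 45.5 and 28.6 TPM. NKX6-1 was above it in both controls, at 48.3 and 44.5 TPM. The hormone genes INS, GCG and PPY had no count in any library. ISL1 also acts in heart progenitors, and of 15 such genes 13 had an identifier and 7 were tested, 1 called higher and 2 lower (median -0.56), against 2 higher and 1 lower with DESeq2. NKX2-5 had 70 and 42 counts against none, at least 26.9-fold higher against a floor of 3 counts over the control group, ACTN2 had 757 and 1018 against 2715 and 1996, and TNNT2 had 4 and 0 against 16 and 10, a call lost without either overexpressing replicate or control replicate 6. TBX1 was the most abundant, at 38.4 and 42.6 TPM against 54.5 and 75.4 TPM. ONECUT1 and ONECUT2 act in liver, and of 12 liver genes 5 were tested, 1 called higher and 1 lower (median 0.01). PROX1 had 510 and 200 counts against 56 and 67, a call lost without overexpressing replicate 1 (1.39). APOA1, the highest in mean TPM over the 4 libraries, had 67 and 148 against 482 and 460. Its TPM was 2.10 and 5.60 against 25.1 and 23.1, and PROX1 was above it in overexpressing replicate 1 (11.0 TPM). AFP, TTR and FOXA2 had no count.

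Hedgehog signalling patterns the ventral neural tube in which ISL1 neurons arise. Of 20 genes of the pathway, 18 had an identifier and 15 were tested, 2 called higher and 3 lower (median log2 fold change -0.23), and SHH and IHH had no count. HHIP, which encodes a Hedgehog-binding antagonist and is itself a target of the pathway (3375 and 1990 counts against 71 and 287), and the coreceptor gene BOC (1406 and 1101 against 421 and 379) were higher, and SMO (1008 and 1125 against 2138 and 2251), another target, GLI1 (7 and 19 against 32 and 53) and SCUBE3 (717 and 710 against 1906 and 2307) were lower. The call of GLI1 was lost without overexpressing replicate 1 or control replicate 8, and its log2 fold change of -2.11 was -3.14 without overexpressing replicate 3. The log2 fold change of HHIP was 3.46 (SE 0.50), 2.82 without control replicate 6 and 4.68 without control replicate 8. SUFU had the highest mean TPM over the 4 libraries, at 64.8 and 61.7 TPM against 76.0 and 91.2 TPM, though SMO was above it in both controls. Of 11 glial genes 5 were tested, 1 called higher and 1 lower (median 0.37): MBP had 531 and 254 counts against 25 and 33, and GFAP had 7 and 4 against 18 and 22, a call lost without any single library and with DESeq2. CNP was the most abundant glial gene, at 45.7 and 50.4 TPM against 37.5 and 42.8 TPM. Of 12 genes of fibroblasts, the cells of origin, 7 were tested, 1 called higher and 4 lower (median -1.97). PDGFRB had 28 and 62 counts against 1966 and 978 (-5.49, -6.32 without overexpressing replicate 3 and -4.79 without control replicate 6), S100A4 had 39 and 89 against 291 and 211 (-2.40, and -3.28 without overexpressing replicate 3), COL1A1 had 59 and 54 against 190 and 129, and DCN had 3 and 1 against 19 and 19, a call lost without overexpressing replicate 3. COL1A2 had 3458 and 1690 counts against 1006 and 699 and was called higher, but not without overexpressing replicate 1 or control replicate 8, and LOX was the most abundant, at 167 and 173 TPM against 185 and 220 TPM. Whether any of these values bear on those of the 10 genes was not tested.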
